A study of Mus musculus with 24 samples.

Results

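The genes of pulmonary surfactant and of the lamellar bodies that store it were followed through mouse lungs of 12 genetic backgrounds. The set was chosen by gene symbol and holds 7 genes, Sftpa1, Sftpb, Sftpc, Sftpd, Abca3, Napsa and Lamp3, of 13319 genes named on the array. Every probe set annotated to a member was taken over all arrays. Of the 11 such probe sets, 10 carried the symbol of 1 member alone and 8 of those, covering 6 members, were bright enough to be tested. The 2 left untested were a dim probe set of Sftpc (1438290_x_at, signal 6.9 to 79) and a dim one of Abca3 (1451869_at, signal 69.3 to 159.1). The remaining one, the single probe set for Lamp3, is also annotated to Ppid, so no value could be assigned to Lamp3.

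The study measured lung RNA on 24 Affymetrix Mouse 430A arrays, 2 for each of 12 kinds of mice. All mice were untreated males aged 8 weeks from the Jackson Lab. The progenitors were B6 (C57BL/6J) and C3 (C3H/HeJ), and the third group was their F1 hybrid (BXHF1). The other 9 groups were the recombinant inbred (RI) strains BXH2, BXH4, BXH6, BXH7, BXH8, BXH9, BXH10, BXH14 and BXH19, each inbred from that cross so that most loci are fixed for the allele of one progenitor. The series title names a comparison of gene expression in all 3 classes of mice, RI, progenitor and hybrid. Lungs were harvested in 2 sets per strain according to the design text, but no label states whether the arrays of one strain represent different animals. The p-values below therefore reflect how far these samples varied, and that variation could be technical.

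Surfactant is a film of phospholipid and protein that lowers surface tension in the alveoli and is made by alveolar type 2 cells. Sftpb and Sftpc encode small hydrophobic proteins that spread the lipid film, whereas Sftpa1 and Sftpd encode collectins, secreted lectins of innate defence that also bind surfactant lipid. The ATP-driven lipid transporter Abca3 loads phospholipid into lamellar bodies, the secretory organelles of the type 2 cell. Napsa encodes napsin A, an aspartic protease that takes part in the maturation of surfactant protein B, and Lamp3 encodes a membrane glycoprotein of lamellar bodies. The transcription factor NKX2-1 and forkhead factors of the FOXA family are known activators of surfactant protein genes in these cells.

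The tissue label was checked against type 2 cell markers outside the set. The phosphate transporter Slc34a2 (7705.1 to 11253.2), lysozyme Lyz1 (8712 to 13220.1) and the chemokine Cxcl15 (7763.1 to 11218.4) were bright on every array. Deposited signals ran from 0 to 20160.1 and array medians from 239 to 269.6. Over all probe sets, the correlation was 0.944 to 0.971 between arrays of the same kind and 0.896 to 0.964 between arrays of different kinds. Tissue that can be harvested with lung varied: the summed signal of 14 tested skeletal muscle genes ranged from 2235.9 to 51539.1 over the arrays, and that of 6 tested squamous epithelium genes from 666.2 to 13837.8. In whole lung, fewer type 2 cells and less RNA per cell cannot be told apart.

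The sequences upstream of Sftpa1, Sftpb and Abca3 are shown, the 3 tested members whose promoters the RefSeq table used here holds. They include Abca3, the member that passed the test between strains. Each is the 250 bases before the annotated start on the plus strand of GRCm38.p6, from RefSeq, and capitals mark matches. The motifs searched on both strands were the NKX2-1 core CTCAAG, the forkhead motifs TGTTTAC and TGTTTGC, and the TATA box TATAAA, none of which overlaps another match here.
Sftpa1, chr14:41131538-41131787: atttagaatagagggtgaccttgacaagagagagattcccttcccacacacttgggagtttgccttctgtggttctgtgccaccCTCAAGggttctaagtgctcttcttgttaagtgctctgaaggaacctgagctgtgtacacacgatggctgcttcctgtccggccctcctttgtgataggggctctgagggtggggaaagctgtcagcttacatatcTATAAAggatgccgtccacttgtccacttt
Sftpb, chr6:72304360-72304609: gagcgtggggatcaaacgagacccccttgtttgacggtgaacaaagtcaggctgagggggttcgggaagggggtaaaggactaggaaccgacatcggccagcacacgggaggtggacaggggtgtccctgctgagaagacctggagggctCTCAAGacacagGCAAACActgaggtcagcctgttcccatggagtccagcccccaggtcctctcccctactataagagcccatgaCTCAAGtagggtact
Abca3, chr17:24351773-24352022: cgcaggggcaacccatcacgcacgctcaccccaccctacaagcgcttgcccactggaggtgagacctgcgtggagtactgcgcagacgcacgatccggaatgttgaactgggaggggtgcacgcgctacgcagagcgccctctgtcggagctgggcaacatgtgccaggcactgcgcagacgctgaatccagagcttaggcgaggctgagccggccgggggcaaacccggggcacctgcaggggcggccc
Sftpa1 holds CTCAAG with its first base 166 bases before the start and TATAAA at 30 bases. Sftpb holds CTCAAG at 100 and 15 bases and TGTTTGC on the opposite strand at 88 bases. Abca3 holds none of these letters in this window and has the highest GC content of the 3, 67.6% against 58.4% for Sftpb and 50.0% for Sftpa1. Among 32851 RefSeq promoter windows of the same length, 13.3% hold CTCAAG, 3.17% TGTTTAC, 4.3% TGTTTGC and 12.4% TATAAA. These matches are descriptions of sequence and not evidence of binding.

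The members' levels were compared between the 12 kinds with limma's moderated F test on log2(signal + 16), adjusted over all 12493 probe sets tested (Benjamini-Hochberg), and a probe set passed at an adjusted p below 0.05. Only 2 of the 8 member probe sets passed, and both belonged to Abca3, against 9.4% of all probe sets tested. The same 2 passed a test restricted to the 9 RI strains, for which the background was 8.85%. At an unadjusted p below 0.05 the counts were 3 and 3 of 8, against 24.8% and 25.0% of all probe sets, the added probe set in the 12-kind test being Sftpa1 1429626_at. No probe set of the 4 surfactant protein genes or of Napsa passed.

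**Figure D1:**
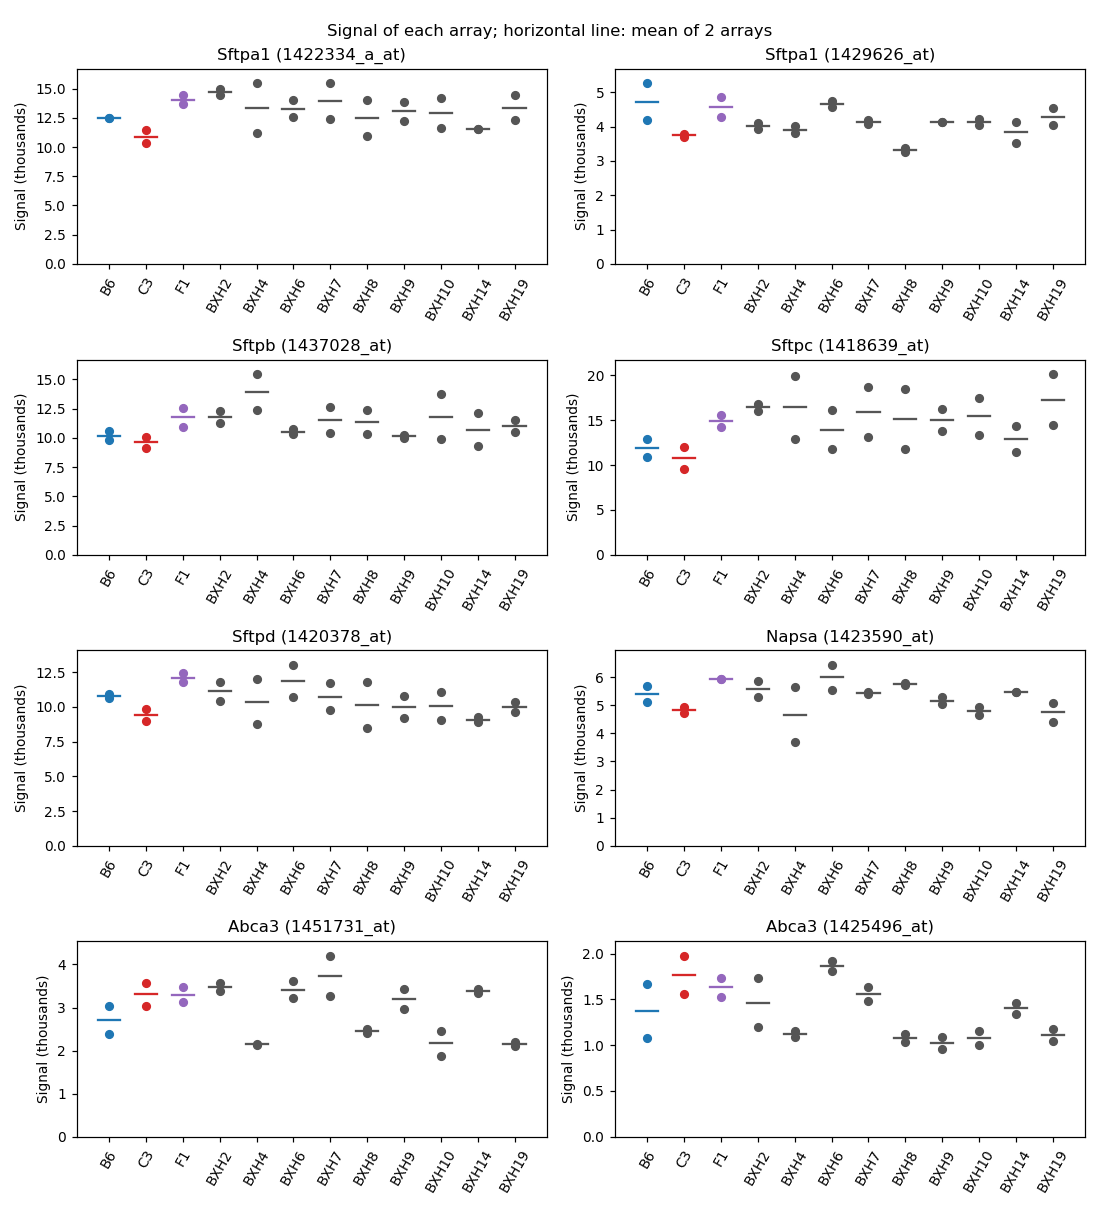
Signal (linear scale) of the 8 tested member probe sets on each of the 24 arrays, by kind of mouse. Points are single arrays, lines the mean of both arrays of a kind, with B6 in blue, C3 in red, F1 in purple and RI strains in grey. For Sftpc both arrays of several strains lie far apart, whereas for Abca3 1451731_at both arrays of BXH4, BXH8, BXH10 and BXH19 lie below those of the other 5 RI strains.

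Sftpc, the gene of surfactant protein C which in the lung marks type 2 cells, had a signal of 9579.1 to 20160.1 with a median of 14296.1 on its bright probe set (1418639_at). The B6 arrays read 12878.8 and 10863.1, the C3 arrays 9579.1 and 12072.6, and the F1 arrays 14252.9 and 15548.9. In the RI strains, in the order of array 1 and array 2, they read 16862.5 and 16012.1 in BXH2, 19987.6 and 12921 in BXH4, 11764.9 and 16104.5 in BXH6, 13178.5 and 18719.5 in BXH7, 11771.2 and 18483.3 in BXH8, 16285.3 and 13751.4 in BXH9, 13316 and 17533 in BXH10, 11474.5 and 14339.3 in BXH14, and 14423.8 and 20160.1 in BXH19. The highest mean, 17292 in BXH19, was 1.60 times the lowest, 10826 in C3, yet both arrays of BXH8 alone spanned most of that interval. With the 12 kinds ordered by log2 mean, no kind had both arrays above both arrays of the kind before it. The spread within a kind was 0.29 (SD on the log2 scale), above the median of 0.19 over all probe sets tested. The adjusted p was 0.543 over the 12 kinds and 0.906 over the RI strains (limma).

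Sftpb, the gene of the surfactant protein needed for lamellar body formation, read 9140.8 to 15451.2 with a median of 10669.1. BXH4 was highest with arrays at 15451.2 and 12348.3, and C3 lowest at 9140.8 and 10071.8. The BXH4 arrays overlapped those of BXH10 (9895.1 and 13719.3), BXH7 (10419.2 and 12610.8), F1 (10946.1 and 12553.2) and BXH8 (10315.5 and 12410.3). The adjusted p over the 12 kinds was 0.488. Against the mean of the other 8 RI strains, BXH4 was 0.32 higher on the log2 scale (SE 0.12, limma adjusted p 0.117).

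The collectin Sftpd read 8469.1 to 13030 with a median of 10550.8. Its highest mean was in F1, with arrays at 12439.3 and 11770.6, and its lowest in BXH14, at 9288 and 8897.9. Both arrays of BXH8, at 8469.1 and 11809.4, covered most of the range seen over all kinds, and the adjusted p was 0.651.

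The other collectin, Sftpa1, had 2 tested probe sets that gave different pictures. On 1422334_a_at it read 10344.7 to 15474.6 with a median of 12524.4, highest in BXH2 (14978.7 and 14471.8) and lowest in C3 (10344.7 and 11439.4), with an adjusted p of 0.606. On 1429626_at it read 3248.2 to 5266.1 with a median of 4112.45, highest in B6 (4184.3 and 5266.1) and lowest in BXH8. The BXH8 arrays, at 3361.4 and 3248.2, lay below every other array, of which the lowest was 3526.3 in BXH14. Even so the adjusted p was 0.123 over the 12 kinds, and BXH8 minus the other RI strains was -0.32 with an adjusted p of 0.108 (limma). Over the 12 means the correlation between both probe sets was 0.42. The within-kind SD on the log2 scale was 0.17 for the first and 0.10 for the second.

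The brightest member probe sets differed between both arrays of a kind in step with other bright probe sets. For each kind the gap of array 2 minus array 1 was set beside that of the 100 brightest other probe sets. These left out the members and the list of other type 2 cell genes. Sftpc and Sftpa1 1422334_a_at were brighter on the same array as that average in 12 of 12 kinds, Sftpb in 9 and Sftpd in 8. Napsa was so in 6 kinds, Abca3 in 7 and 5 for its 2 probe sets, and Sftpa1 1429626_at in 5. The mean log2 signal of the 100 brightest probe sets ran from 12.99 to 13.45 over the arrays, with a median gap of 0.14 between both arrays of a kind and a largest gap of 0.38, in BXH4. In BXH4 the gaps were -0.63 for Sftpc, -0.61 for Napsa, -0.46 for Sftpa1 1422334_a_at, -0.46 for Sftpd and -0.32 for Sftpb, against 0.01 for Abca3 1451731_at.

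**Figure D2:**
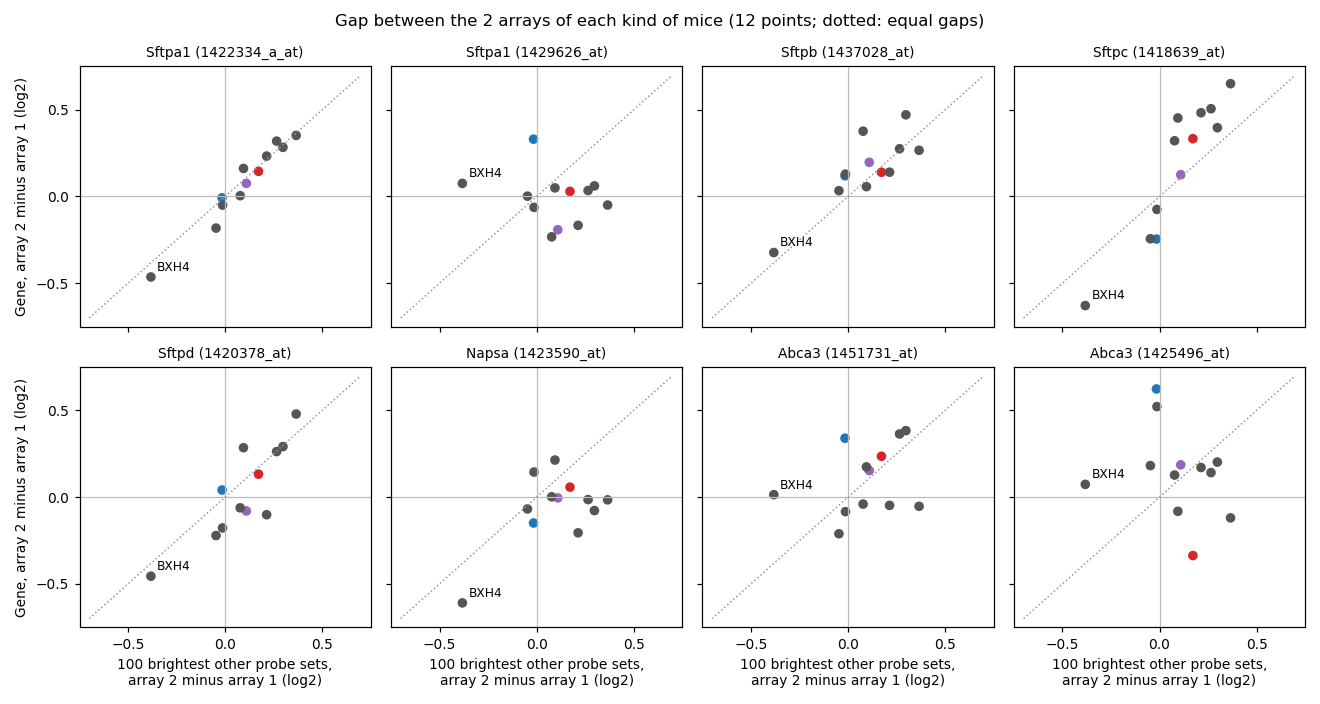
Difference between both arrays of a kind (array 2 minus array 1, log2) for each tested member probe set on the vertical axis, against the same difference for the mean of the 100 brightest other probe sets on the horizontal axis. Those 100 leave out the members and the list of other type 2 cell genes. Each point is 1 of 12 kinds, the dotted line marks equal differences, and BXH4 is labelled. Sftpc and Sftpa1 1422334_a_at follow the bright probe sets in sign in 12 of 12 kinds, whereas the Abca3 probe sets do so in 7 and 5.

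Quantile normalization, which gives every array the same distribution of values, narrowed these gaps for the 4 brightest member probe sets. The within-kind SD went from 0.29 to 0.09 for Sftpc, from 0.17 to 0.07 for Sftpa1 1422334_a_at, from 0.17 to 0.10 for Sftpb and from 0.18 to 0.11 for Sftpd. The log2 range of the 12 means went from 0.66 to 0.24 for Sftpc and from 0.44 to 0.22 for Sftpa1 1422334_a_at. It narrowed less for Sftpb, from 0.52 to 0.41, and for Sftpd, from 0.41 to 0.38. No surfactant protein gene passed the 12-kind test on those values either (adjusted p 0.144 for Sftpd to 0.574 for Sftpa1 1422334_a_at). In the single-strain contrast, Sftpb in BXH4 did pass on them, 0.26 above the other RI strains on the log2 scale (adjusted p 0.0328). The SD changed little for Napsa (0.15 on both scales) and Abca3 (0.15 to 0.14 for 1451731_at, 0.20 on both scales for 1425496_at), and it widened from 0.10 to 0.12 for Sftpa1 1429626_at. Sftpc, Sftpa1 1422334_a_at, Sftpb and Sftpd ranked 3, 10, 29 and 35 by mean log2 signal. How far giving every array the same distribution limits differences at these ranks was not tested. How large a strain difference could have been detected on the values as deposited was not tested.

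Napsa, the protease gene, read 3689.4 to 6429.4 with a median of 5422.95 and was steadier within most kinds. In BXH14 its arrays stood at 5458 and 5464.5, in F1 at 5943.9 and 5924.9, and in BXH7 at 5449.9 and 5396. The highest mean was 5986 in BXH6 (5542 and 6429.4) and the lowest 4664 in BXH4, where the arrays read 5638.4 and 3689.4. The adjusted p was 0.396 over the 12 kinds and 0.392 over the RI strains. Without the brighter BXH4 array (replicate 1), Napsa passed both tests (adjusted p 0.0394 and 0.0359, limma) and BXH4 minus the other RI strains became -0.53 (adjusted p 0.0135), so that call rests on the single BXH4 array at 3689.4. On that array the summed skeletal muscle signal was 2466.7 and on the brighter one 10248.1; the part of this in the Napsa values was not tested. The probe set shared by Lamp3 and Ppid, a cyclophilin gene, read 2769.1 to 4478.6 and was highest in F1 (4478.6 and 3987.6) and lowest in BXH10 (2769.1 and 3223.8).

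Abca3 was the member whose probe sets passed the test of differences between strains. On 1451731_at it read 1879.3 to 4199 with a median of 3075, and the adjusted p was 0.00291 over the 12 kinds and 0.00159 over the RI strains (limma). The B6 arrays read 2392.2 and 3031.2, those of C3 3032.9 and 3573.3, and those of F1 3117.1 and 3468.5. In the RI strains they read 3577.4 and 3375.1 in BXH2, 2135.4 and 2156.5 in BXH4, 3209.5 and 3623.5 in BXH6, 3259.2 and 4199 in BXH7, 2492.5 and 2401.9 in BXH8, 3430.7 and 2961.4 in BXH9, 1879.3 and 2455.8 in BXH10, 3435.1 and 3340.6 in BXH14, and 2188.1 and 2116.5 in BXH19. The RI strains fell into a lower and a higher set without overlap: the 8 arrays of BXH4, BXH8, BXH10 and BXH19 lay between 1879.3 and 2492.5, and the 10 arrays of BXH2, BXH6, BXH7, BXH9 and BXH14 between 2961.4 and 4199. This grouping was described after the values were seen and carries no test. The share of all probe sets that can be divided in this way was not counted. The mean of BXH7, 3729, was 1.74 times that of BXH4, 2146. Ordered by log2 mean, BXH8 was the single kind with both arrays above both arrays of its lower neighbour, BXH19. BXH10, whose mean differed little from that of BXH19, overlapped BXH8 with its array at 2455.8.

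The second bright Abca3 probe set, 1425496_at, read 955.9 to 1974.6 with a median of 1269.45 and also passed (adjusted p 0.0206 over the 12 kinds and 0.0309 over the RI strains, limma). The B6 arrays read 1078.2 and 1669.8, those of C3 1974.6 and 1560.2, and those of F1 1525.8 and 1738.3. Among RI strains they read 1199.4 and 1728.8 in BXH2, 1092.9 and 1150.9 in BXH4, 1914.9 and 1808.4 in BXH6, 1485.3 and 1639.6 in BXH7, 1126.4 and 1035.5 in BXH8, 955.9 and 1086.4 in BXH9, 1000.7 and 1153.5 in BXH10, 1339.5 and 1464.5 in BXH14, and 1042.5 and 1175.4 in BXH19. The 10 arrays of BXH4, BXH8, BXH9, BXH10 and BXH19, at 955.9 to 1175.4, lay below the 8 arrays of BXH2, BXH6, BXH7 and BXH14, at 1199.4 to 1914.9. BXH9 thus stood with the higher strains on one probe set and lowest of all on the other, with a mean of 1021 against 1862 in BXH6. The division on 1425496_at was also drawn after the values were seen. Its edges lay close together, at 1175.4 and 1199.4, and the B6 arrays fell on both sides. The correlation between both Abca3 probe sets over the 12 means was 0.73. Without the first BXH6 array the adjusted p of 1425496_at over the 12 kinds was 0.0540, so that 1 member probe set was left in that count. Over the RI strains its adjusted p lay between 0.0502 and 0.108 without either array of BXH4, BXH6 or BXH7, the second of BXH8, or the first of BXH9 or BXH19, and it was 0.0730 with the skeletal muscle list as a covariate.

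**Figure D3:**
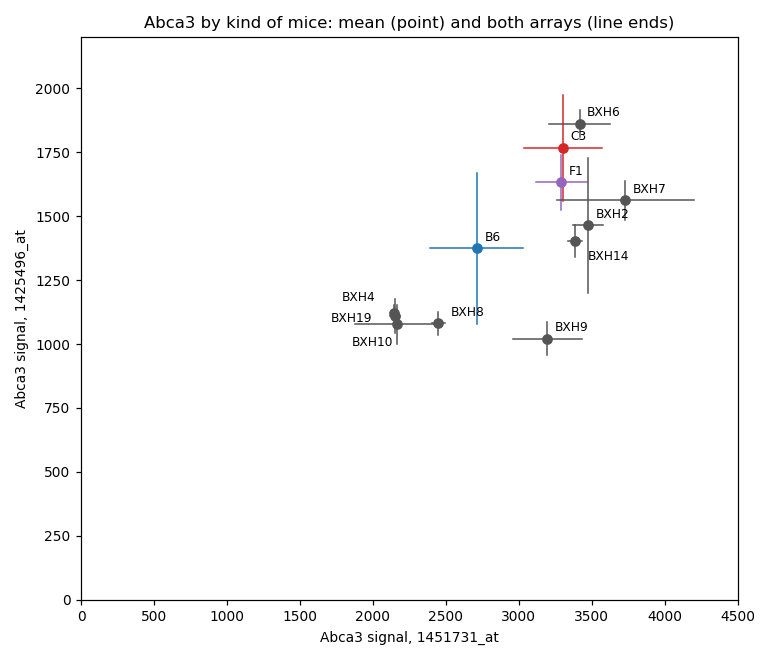
Mean signal of each kind on the 2 bright Abca3 probe sets, with line ends at the values of both arrays (linear signal on both axes). BXH4, BXH8, BXH10 and BXH19 are low on both probe sets, BXH2, BXH6, BXH7 and BXH14 are high on 1451731_at and above 1199 on every array of 1425496_at, and BXH9 is high on the first and low on the second.

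Within single strains, 2 of 72 contrasts of a member probe set in 1 RI strain against the mean of the other 8 passed, where 2.13% of all probe sets and contrasts did, and 13 of 72 had an unadjusted p below 0.05, against 13.4% of all. Abca3 1451731_at was lower in BXH4 by a factor of 0.735, a log2 difference of -0.44 (SE 0.11, 95% interval -0.68 to -0.20, adjusted p 0.0243), in a strain where 4.51% of all probe sets were called lower. BXH10 and BXH19 lay as far below (-0.44 each) with adjusted p of 0.0697 and 0.0761, and BXH7 lay 0.43 above with 0.0750. Abca3 1425496_at was higher in BXH6 by a factor of 1.53, a log2 difference of 0.61 (SE 0.14, 95% interval 0.32 to 0.91, adjusted p 0.0323), where 0.897% of all probe sets were called higher. The BXH4 call was lost without either BXH4 array (adjusted p 0.148 and 0.167, with differences of -0.44 and -0.45). Without the first BXH7 array the count was 4, with Abca3 1451731_at also lower in BXH10 (-0.46, adjusted p 0.0459) and BXH19 (-0.46, 0.0495). The BXH6 call was lost without either BXH6 array (adjusted p 0.413 and 0.219), without both BXH4 arrays (0.0523), with each array centred on its median (0.0542) and with the skeletal muscle list as a covariate (0.174). The difference itself was 0.57 and 0.65 without a BXH6 array, 0.60 without BXH4, 0.63 with centring and 0.52 with the covariate.

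Marker genes of other cells were summed in the lower and the higher Abca3 strains. The summed signal of the other type 2 cell genes was 76650.6 to 91348.4 in the 8 arrays of BXH4, BXH8, BXH10 and BXH19 and 81527.4 to 101791 in the 10 arrays of the higher strains, with medians of 87288 and 91849. For alveolar type 1 cell genes, markers of the flat gas-exchange epithelium, the ranges were 46273.3 to 57880.2 and 49405.3 to 69684.1, with medians of 54012 and 59266. The medians were 51853 and 44840 for endothelial genes and 4525 and 1496 for squamous epithelium. The ranges of both sets overlapped for every marker list examined, skeletal muscle included (2235.9 to 39291.8 and 2488.9 to 51539.1), and the part of these shifts in the Abca3 values was not tested.

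Genes near Abca3 on chromosome 17 were examined in the gene order of GRCm38.p6. Of 35 tested genes within 40 protein-coding genes of Abca3, 3 passed the 12-kind test, Srrm2, Gfer and Tnfrsf12a, which is 8.57% and near the 9.51% of all genes. The correlation with Abca3 over the 12 means was above 0.5 for 5 of the 35 and below -0.5 for 10. The share of all genes beyond these limits was not counted. The splicing co-activator gene Srrm2, 23 genes away, had means of 802 in BXH4, 749 in BXH8, 779 in BXH10 and 741 in BXH19, and 650 in the progenitor B6. The C3 mean was 1886, and the others were 1457 in F1, 1507 in BXH2, 1400 in BXH6, 1708 in BXH7, 1952 in BXH9 and 1762 in BXH14 (adjusted p over the 12 kinds 7.58e-07, limma). Srrm2 thus divided the RI strains as Abca3 1451731_at did. Gfer ran the other way (correlation -0.59), with means of 194 to 217 in the 5 higher strains and 260 or more in the 4 lower ones. The progenitors were not divided so on Gfer, with means of 336 in B6 and 319 in C3, and 294 in F1. Tnfrsf12a (0.61) did not divide the RI strains so, with 369 in BXH19 and 279 in BXH14. Glo1, the glyoxalase gene 171 protein-coding genes from Abca3, read 2765 in C3 and 1246 in B6. It read 2255 to 2664 in BXH2, BXH6, BXH7 and BXH14 and 980 to 1134 in BXH4, BXH8, BXH9, BXH10 and BXH19, the same division as Abca3 1425496_at, with BXH9 among the low strains. Over the 12 means the correlation with Abca3 1451731_at was 0.87 for Srrm2 and 0.82 for Glo1. These genes share arrays and a chromosome with Abca3, and they were picked with the strain pattern in view, so no test is attached.

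No member passed the test between the progenitors. For C3 minus B6 it was 0 of the 8 probe sets (limma), where 1.67% of all probe sets did, and 1 had an unadjusted p below 0.05, against 8.85% of all. That one was Sftpa1 1429626_at, lower in C3 by 0.33 on the log2 scale (95% interval -0.58 to -0.08, adjusted p 0.302), with arrays at 3704 and 3780.6 in C3 and 4184.3 and 5266.1 in B6. The estimate was below 0 for 6 of the 8 probe sets, with Sftpc at -0.14 (-0.67 to 0.39), Sftpb at -0.09 (-0.43 to 0.26), Sftpd at -0.20 (-0.56 to 0.16) and Napsa at -0.16 (-0.47 to 0.15). Without the first C3 array the Sftpc estimate was 0.03. The 2 estimates above 0 were those of Abca3, 0.29 (-0.03 to 0.61, adjusted p 0.651) and 0.38 (-0.01 to 0.78, adjusted p 0.591). Both progenitor means of Abca3 1451731_at, 2712 in B6 and 3303 in C3, lay inside the range of the RI means: BXH4, BXH8, BXH10 and BXH19 lay below both, and BXH2, BXH6, BXH7 and BXH14 above both.

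No member passed the test of the F1 hybrid against the mean of its progenitors (midparent, log2) either. It was 0 of the 8 probe sets (limma), where 0.128% of all passed, and 0 had an unadjusted p below 0.05, against 7.24% of all. All 8 estimates were above 0, the largest for Sftpc, 0.40 (95% interval -0.06 to 0.86, adjusted p 0.729). The F1 arrays of Sftpc, 14252.9 and 15548.9, were above all 4 progenitor arrays, of which the highest was 12878.8. On quantile-normalized values the estimates were -0.05 for Sftpa1 1422334_a_at, -0.03 for Sftpb, -0.01 for Sftpd and 0.11 for Sftpc, so the shared direction did not hold under that scaling.

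**Figure D4:**
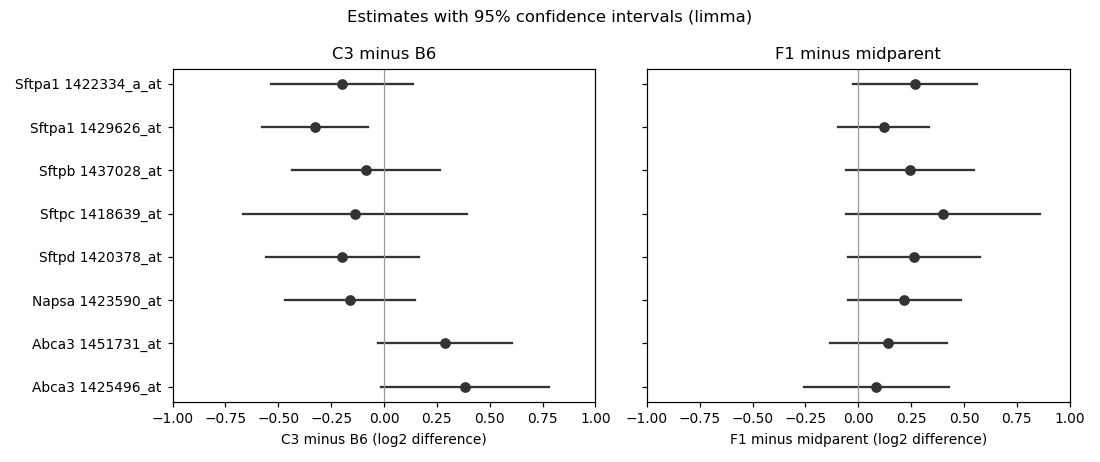
Log2 differences of the 8 tested member probe sets for C3 minus B6 and for F1 minus the midparent, with 95% intervals from the limma fit and a line at 0. All intervals of the F1 comparison include 0, and for C3 minus B6 only that of Sftpa1 1429626_at, at -0.58 to -0.08 before adjustment, does not.

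The members did not form one pattern over the 12 kinds. Each gene was taken here by its brightest tested probe set, 1422334_a_at for Sftpa1 and 1451731_at for Abca3. By correlation of the 12 means, Sftpc went with Sftpa1 (0.80) and Sftpb (0.70), Sftpd with Sftpa1 (0.74), and Abca3 with Napsa (0.62), while Abca3 ran against Sftpb (-0.42). Among 8272 other genes, those most like Sftpc were Tpt1, Eef1a1 and Npc2 (0.96 each). Those most like Sftpa1 were Actb (0.92), Itm2b (0.91) and Lyz2 (0.90). All 6 are bright on these arrays, with no array below 7682.5, and none passed the 12-kind test. Sftpd was most like the type 2 cell genes Cxcl15 (0.89) and Slc34a2 (0.83), and the fatty acid synthase gene Fasn (0.82). Abca3 was most like the epithelial cadherin gene Cdh1 (0.96), the chromosome 17 gene H2-Ke6 (0.95) and Cystm1 (0.91). Sftpb was most like Tgoln1 (0.88), Eva1c (0.87) and Slc16a3 (0.86), and Napsa like Polr3k (0.90), Psmc3 (0.86) and Mri1 (0.85). The mean of the members was most like Tmsb10 (0.88), Cxcl15 (0.87) and Srsf5 (0.86). These are the highest of many correlations over 12 points and describe the data only.

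Genes that work with the members were counted from lists, each gene by its brightest probe set, for which the background over 8278 genes was 9.51% in the 12-kind test and 8.81% in the RI test. Of 12 genes for protein processing and lamellar body trafficking, 2 passed over the 12 kinds and 1 over the RI strains. They were the phospholipid flippase Atp8a1 (adjusted p 0.0178, mean 2222 in BXH7 and 957 in BXH8) and cathepsin H, Ctsh, a protease of surfactant protein processing (0.0359, 4126 in B6 and 2564 in BXH4). Gna12 (0.175) and Cd9 (0.480) did not. Of 11 phospholipid synthesis genes, 1 passed both tests, the phosphatidate phosphatase Lpin1 (adjusted p 7.28e-04, 1354 in BXH4 and 296 in BXH7). Plpp1 (0.144), Gpam (0.161) and the choline kinase Chka (0.185) did not.

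Of 20 regulators of surfactant genes, 1 passed over the 12 kinds and 2 over the RI strains. Gata6, a transcription factor of lung epithelium, had an adjusted p of 0.00418 with means of 1394 in BXH6 and 699 in BXH9. Cebpd passed over the RI strains alone (0.0407, against 0.0697 over the 12 kinds), with means of 2633 in BXH9 and 1097 in BXH6. Foxa2, of the forkhead family named above, had 0.0664 and the sterol regulator Srebf2 0.107. Of 9 genes of surfactant turnover and sensing, 1 passed over the 12 kinds, lipoprotein lipase Lpl (0.0200, 4562 in BXH9 and 2351 in BXH4), and 3 over the RI strains. The cholesterol transporter Abca1 had an adjusted p of 0.0526 over the 12 kinds, the GM-CSF receptor gene Csf2ra 0.0529 and Sirpa 0.0558. Over the RI strains Lpl, Abca1 and Csf2ra passed (adjusted p 0.021, 0.0337 and 0.0406, limma) and Sirpa did not (0.159).

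Of 25 other type 2 cell genes, 6 passed over the 12 kinds and 6 over the RI strains. Those with the smallest p were the calcium-binding protein S100g (adjusted p 3.09e-04, 970 in BXH7 and 412 in BXH4), Ppp1r14c (0.00885, 2650 in B6 and 1540 in BXH4), the fatty acid carrier Fabp5 (0.00900, 4460 in BXH9 and 2256 in BXH4) and Dram1 (0.0257, 4831 in F1 and 3126 in BXH4). All 4 had their lowest mean in BXH4, as did genes of other lists, such as Igfbp2 (alveolar type 1) and Actc1 (cardiac muscle). The share of all genes with their lowest mean in BXH4 was not counted. In BXH4 3 genes of this list were lower than in the other RI strains and 0 higher, with a list median of -0.12 against 0.01 over all genes, where 4.05% of genes were called lower. The median of the 12 tested alveolar type 1 cell genes in BXH4 was -0.18, with 1 called lower (limma). Other lists moved in BXH4 as well: the median was 0.30 for 16 endothelial genes and 0.21 for 12 genes of cell stress and RNA handling. It was -0.69 for cardiac muscle with 3 of 10 genes called lower and -0.91 for skeletal muscle with 1 of 14, beside the same 4.05%. The surfactant protein genes had no common direction there. Sftpb stood at 0.32, Sftpc at 0.10, Sftpa1 at 0.01 (1422334_a_at) and -0.05 (1429626_at), and Sftpd at -0.006, none of which passed. The part of these lists in the BXH4 values was not tested. For C3 minus B6, where 1.63% of all genes were called, 1 gene of the 5 lists passed, Ppp1r14c, lower in C3 by 0.64 on the log2 scale (adjusted p 0.0127). For F1 against the midparent, where 0.0362% were called, none did. Over all 9 single-strain contrasts, 2.07% of all genes and contrasts were called. The 25 genes of the type 2 cell list gave 4 higher and 4 lower calls. The 12 processing genes gave 0 higher and 2 lower, and the 11 phospholipid synthesis genes 2 higher and 1 lower. The 20 regulators gave 1 higher and 2 lower, and the 9 turnover and sensing genes 0 higher and 1 lower.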

How the data were processed

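Lung RNA of 12 kinds of mice was measured on 24 arrays. Per the labels' protocols, Trizol-extracted RNA was primed with T7-oligo(dT) and amplified to biotin-labelled cRNA. The authors' deposited table gives an intensity (signal, linear scale) for each of 22690 probe sets on each array. Which software produced it is not given in the sources used here. On every array the mean after trimming 2% from each end was 500.1, so a common scaling was already applied and none was added. Names came from the platform annotation, in which 20380 probe sets had 1 symbol, 691 several, 1555 none and 64 were controls. Those with 1 symbol and a mean in the top 60% (signal 169 or more) were tested, 12493 in all. RefSeq (GRCm38.p6), whose gene table holds all 7 member symbols, gave gene order and promoter sequence; it holds promoters of 3 of the members with a probe set of their own.

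One model with 12 groups was fitted to log2(signal + 16) with limma 3.58.1 in R 4.3.3 (lmFit, eBayes with trend, 12 residual degrees of freedom), adjusted by Benjamini-Hochberg within each test. The offset makes log2 differences understate changes of dim genes. The number of arrays limits the precision. The fit was tested on simulated data.

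The members and gene lists were chosen with earlier results of these data known. Named beyond the members were the 3 genes most correlated with each member, up to 4 per related list by smallest p, and chromosome 17 genes (Srrm2, Gfer, Tnfrsf12a, Glo1) picked after their values were seen. The alternatives changed the scaling (quantile, median centring), the offset (1, 64), the filter (none, top 40%), the probe sets per gene (1), the trend, the replicate block, a skeletal muscle covariate, and the arrays fitted (subsets, or each array left out).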

Additional observations from a re-analysis of the deposited data

How the results depend on the processing

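Abca3 1451731_at passed under every alternative run, with adjusted p of 0.0018 to 0.0104 over the 12 kinds and 0.00097 to 0.0056 over the RI strains, and no surfactant protein gene passed either test under any. Counts that moved were as follows. With 1 probe set per gene, 1 member passed over the 12 kinds, 1 over the RI strains and 1 call remained in single strains, because the second Abca3 probe set was not tested. With the skeletal muscle covariate 1 passed over the RI strains and 1 in single strains. Median centring gave 1 single-strain call and quantile normalization 4, which added Sftpb in BXH4 (0.26, adjusted p 0.0328) and Abca3 1451731_at in BXH10 (-0.43, 0.0449). Leaving out each array gave 1 to 3 over the 12 kinds, 1 to 2 over the RI strains and 1 to 4 in single strains; C3 minus B6 and F1 minus the midparent stayed at 0 in all. Directions reversed for F1 minus the midparent under quantile normalization in Sftpa1 1422334_a_at (-0.046), Sftpb (-0.034) and Sftpd (-0.014), and with an array left out in Abca3 1425496_at (-0.071 to 0.24), and for C3 minus B6 in Sftpc (-0.30 to 0.029), all uncalled. The cause was not tested. Leaving out both BXH4 arrays was added after seeing the data.

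Same-numbered arrays showed no common deviation over all kinds. Over 66 pairs of kinds the correlation of deviations had a median of -0.005 and ran from -0.29 to 0.34, and 20 exceeded 0.1. Whether the numbers pair samples in some kinds was not tested. With the replicate block the counts were 2 over the 12 kinds, 2 over the RI strains, 0, 0 and 2 in single strains. With 2 arrays per kind, the values do not show which array of a pair stands apart.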
